A study of Mus musculus with 768 samples.

Results

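Natural killer (NK) cells that carried transcripts of the chemokine receptor gene Cxcr6, and at most 1 of the 3 CD3 transcripts of T cells, were described in a mouse tumor. There were 68 of them, 14 from wild-type (WT) mice and 54 from PD-1-/- mice, among all wells of the series. Wells with 1000 to 3500 detected genes were kept, where a gene was detected at a value above 0 and had to be detected in at least 3 wells. From these 726 kept cells, the Cxcr6-positive cells were chosen by their measured values, as those with Cxcr6 above 0 and fewer than 2 of the 3 CD3 genes Cd3d, Cd3e and Cd3g above 0. They were set against the Cxcr6-negative cells, which had Cxcr6 at 0 and met the same limit on CD3 genes, 582 in all. Cxcr6, the CD3 genes and the number of detected genes therefore chose the cells, and their values are a description.

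The cells were tumor-infiltrating NK cells of C57BL/6 mice bearing MTAP1A, a fibrosarcoma clone that lacks Tap1 and hence has little MHC class I on its surface. Male recipients of 8 to 12 weeks of age were used, either WT or PD-1-/-, the latter with a deletion of part of Pdcd1, the gene of the inhibitory receptor PD-1, in every cell of the mouse. NK1.1+CD3- cells were sorted from the pooled tumors of 3 mice of each genotype about 90 min after harvest, and SMART-SEQ2 libraries, which cover whole transcripts without molecular identifiers, were made on 1 plate per genotype. Each genotype was thus a single pool on a single plate. An effect of genotype and an effect of the plate cannot be told apart, the cells of a plate are not replicates, and no p-value was computed. An exact permutation test over the 2 pairs of plate values could not have gone below p = 0.5. Shares of cells carry exact binomial (Clopper-Pearson) 95% intervals, which cover counting error only.

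CXCR6 is the receptor of CXCL16, a chemokine that also exists bound to the surface of cells, and it is best known from lymphocytes that stay in the liver and other tissues. Group 1 innate lymphocytes comprise circulating NK cells, which depend on the transcription factor EOMES and acquire Ly49 receptors for MHC class I as they mature, and tissue-resident type 1 innate lymphoid cells (ILC1), which carry CD49a, TRAIL, CD127 and CXCR6. Both use the transcription factor T-bet and both respond to tumors, where NK cells can take on part of the surface phenotype of ILC1.

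The cells carried most of the NK lineage transcripts examined. Klrb1c, which encodes NK1.1, was found in 14 of the 14 WT and 52 of the 54 PD-1-/- Cxcr6-positive cells, and Ncr1, the gene of the activating receptor NKp46, in 12 and 53. Klrk1 (NKG2D) and the signaling adaptor Fcer1g were detected in all 68. Of 8 NK genes examined, a Cxcr6-positive cell had 5 to 8, with a median of 6.50 in WT and 7 in PD-1-/-, against 8 in Cxcr6-negative cells of both plates. Eomes, described below, was the NK gene most often missing in PD-1-/-, and Eomes and the granzyme gene Gzma in WT.

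No CD3 gene was detected in 10 WT and 44 PD-1-/- Cxcr6-positive cells, and the other 4 and 10 had exactly 1. Cd3g accounted for 4 WT and 6 PD-1-/- cells, Cd3e for 3 PD-1-/- cells and Cd3d for 1. Of 7 other T cell genes, Cd4, Cd5, Cd6, Cd8a, Cd8b1, Bcl11b and Themis, at least 1 was detected in 14.3% (1.78 to 42.8) of the WT and 11.1% (4.19 to 22.6) of the PD-1-/- cells, against 5.08% and 4.87% of Cxcr6-negative cells, and none of the 68 had 2. Among the 37 kept Cxcr6-positive cells with at least 2 CD3 genes the shares were 57.1% and 52.2%. The neutrophil and B cell markers S100a8, S100a9, Csf3r, Cd79a, Cd79b and Ms4a1 were at 0 in all 68 cells. A myeloid marker was detected in 2 WT and 1 PD-1-/- cells, a fibrosarcoma collagen or Sparc in 2 and 4, and an ILC2 or ILC3 marker in 1 and 1. The label of NK cells held for Klrb1c, Ncr1, Klrk1 and Fcer1g, in cells that had been sorted on NK1.1. It did not hold for Eomes, which was detected in 35.7% of the WT and 29.6% of the PD-1-/- cells. Whether the cells were NK cells or ILC1 was not tested. The label of cells without CD3 transcripts did not hold for the 14 of 68 cells with 1 CD3 gene, which the choice of cells allowed.

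Depth differed little between the groups. Whole reads recovered from the expression values had a median of 270312.5 in WT Cxcr6-positive and 277456 in WT Cxcr6-negative cells, and of 313869.5 and 290701 in PD-1-/-. Medians of detected genes were 2356.5 and 2265 in WT, and 2313 and 2238 in PD-1-/-. Fewer than 100000 reads were recovered in 2 WT and 1 PD-1-/- Cxcr6-positive cells. No 2 wells held identical values. In the WT plate, 4 of the 14 Cxcr6-positive cells lay in the plate rows A and B, against 3 of 54 in PD-1-/-, and 3 of the 4 WT cells with a CD3 gene were in row A. Values without rows A and B are given for many of the genes described in detail whose call or overlap of intervals changed without them. A gene without such values may also have changed.

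Expression is given as RPKM, read counts scaled to transcript length and to the mapped reads of the cell, which can be compared between genes. In WT cells Cxcr6 ranged from 1.17 to 2099.3 RPKM with a median of 371.5, and in PD-1-/- cells from 1.03 to 3059.3 with a median of 640.7. The levels fell into separate ranges. In 4 WT and 12 PD-1-/- cells Cxcr6 was between 1.03 and 3.86 RPKM, which was 1 or 2 recovered reads in each. The other 10 WT cells held 46 to 2099.3 RPKM (median 540.5), and the other 42 PD-1-/- cells 69.7 to 3059.3 (median 1034.3). In the shallowest cell of each plate, with 9396 and 2901 recovered reads, the value in this higher range rested on 1 read. The ranges of the genotypes overlapped throughout. Cxcr6-positive cells with at least 2 CD3 genes spanned 59.6 to 3461.7 RPKM in WT and 12.2 to 3077.5 in PD-1-/-, with none in the low range. Just outside the limit on CD3 genes lay 3 WT and 2 PD-1-/- cells with exactly 2 of them.

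**Figure D1:**
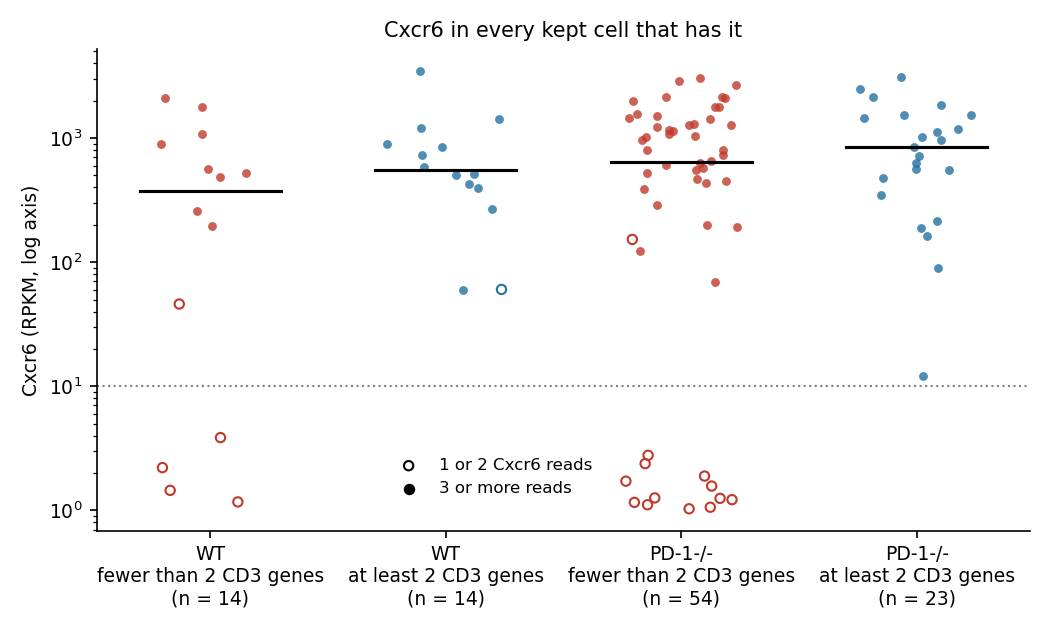
Cxcr6 level in RPKM (log axis) in each Cxcr6-positive cell with fewer than 2 CD3 genes and, beside it, in each with at least 2, by plate; each point is 1 cell (open for 1 or 2 Cxcr6 reads, filled for 3 or more), black lines are medians and the dotted line is 10 RPKM. The 4 WT and 12 PD-1-/- cells below 10 RPKM sit apart from the rest, and no cell with at least 2 CD3 genes lies below the line.

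Among kept cells with fewer than 2 CD3 genes, 4.26% (2.35 to 7.04) of WT cells were Cxcr6-positive, and 16.8% (12.9 to 21.4) of PD-1-/- cells. These intervals did not overlap. Without rows A and B the shares were 3.29% (1.59 to 5.97) and 18.1% (13.8 to 23.1). The order turned inside rows A and B, where the share was 16% (4.54 to 36.1) of 25 WT cells and 7.69% (1.62 to 20.9) of 39 PD-1-/- cells, with overlapping intervals. The upper part of the plates, rows A to H, gave 4.52% and 15.2%, and the lower part 4.02% and 18.5%. Positive cells were found in 8 of 16 rows of the WT plate and in 16 of 16 rows of the PD-1-/- plate.

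To find which transcripts accompanied Cxcr6, Cxcr6-positive cells were compared with Cxcr6-negative cells of the same plate over 9527 gene entries, those detected in at least 3% of these cells. A gene was called when the mean RPKM, with 1 added, differed at least 2-fold, which is an absolute log2 ratio of 1. In WT, 1064 entries were called higher (11.2%) and 2776 lower (29.1%), and in PD-1-/- 631 higher (6.62%) and 1160 lower (12.2%). In both plates 1.46% of the entries were called higher and 505 lower (5.30%). A call in 1 plate only does not show that the plates differ, which was not tested. The genes below are said to have risen or fallen only where they were called in both plates. Of the lower calls in WT, 1162 of 2776 (41.9%) had all 14 Cxcr6-positive cells at 0, against 10% of the 1160 in PD-1-/-. Of 33 genes described or listed that were called higher in both plates, 30 were also called in both without rows A and B, and 24 without the single highest Cxcr6-positive cell of each plate, an alternative chosen after the data were seen. Of 26 called lower in both, 26 were also called without rows A and B and 23 without the single highest Cxcr6-negative cell. The median log2 ratio over all 9527 entries was -0.24 in WT and -0.06 in PD-1-/-. A stricter description used the share of cells with a transcript. In both plates the 95% interval of Cxcr6-positive cells lay above that of Cxcr6-negative cells for 23 entries (0.241%) and below it for 5 (0.0525%), and without rows A and B this held for 8 of the 23 and 3 of the 5. Among the genes of the lists described below, the interval lay above in 10 genes in WT and in 17 in PD-1-/-. Over all entries this held for 1.20% and 1.06%. It lay below in 2 list genes in WT and in 2 in PD-1-/-, against 0.199% and 0.367% of all entries. Of the list genes compared, 52 were detected in a higher share of Cxcr6-positive cells in both plates and 27 in a lower share, against 31.5% and 21.8% of all entries.

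**Figure D2:**
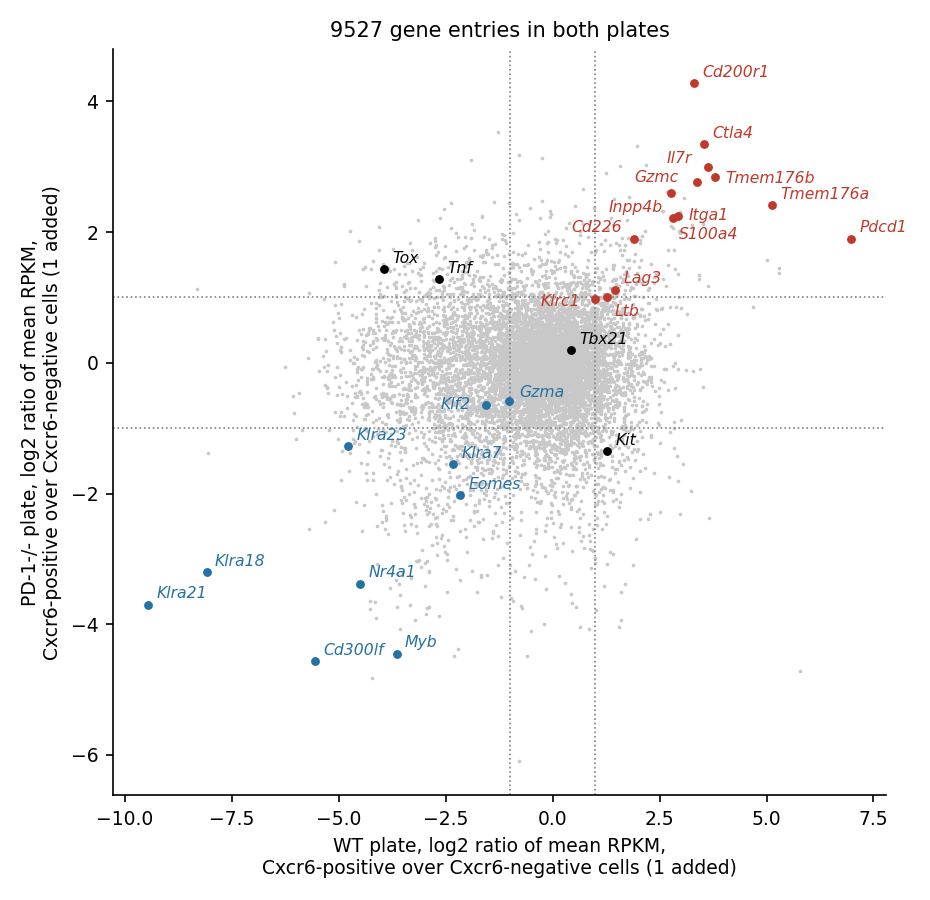
Log2 ratio of mean RPKM (1 added), Cxcr6-positive over Cxcr6-negative cells, in the WT plate (x axis) and the PD-1-/- plate (y axis) for 9527 entries; dotted lines mark the 2-fold call. Itga1, Il7r, Tmem176b and Ctla4 lie at the upper right, and Klra21, Klra18 and Eomes at the lower left; the position of an entry that is at 0 in every Cxcr6-positive cell of a plate, such as Klra21 in WT, depends on the added 1.

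Genes of tissue residency and of ILC1 were higher as a group, in a list written with earlier results of these data known. Its direction is therefore a description. Of 20 entries of this list that were compared, 14 were called higher and 1 lower in WT, and 12 higher and 1 lower in PD-1-/-. Over all entries, 11.2% were called higher and 29.1% lower in WT, and 6.62% and 12.2% in PD-1-/-. In both plates the shares were 1.46% and 5.30%. The 10 called higher in both plates were Itga1, Il7r, Rora, Ltb, Gpr183, Tmem176a, Tmem176b, Cd200r1, Inpp4b and Cd7, and 0 were called lower in both. Without the highest cell of each plate Ltb and Cd7 lost the call. The median log2 ratio of the list was 1.26 in WT and 1.32 in PD-1-/-, against -0.24 and -0.06 over all entries.

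Itga1 encodes CD49a, the collagen-binding integrin subunit that marks resident NK cells and ILC1. It was detected in 9 of 14 WT Cxcr6-positive cells, 64.3% (35.1 to 87.2), at 1.53 to 123.9 RPKM with a median of 49.2, and in 8.25% (5.46 to 11.9) of Cxcr6-negative cells. In PD-1-/- it was detected in 25 of 54, 46.3% (32.6 to 60.4), at 3.13 to 419.7 RPKM with a median of 86, and in 15.4% (11.3 to 20.2) of Cxcr6-negative cells. The intervals were apart in both plates, and the mean rose by log2 2.94 in WT and 2.25 in PD-1-/-. Without rows A and B the shares were 60% and 47.1%.

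Il7r, the gene of the interleukin-7 receptor chain CD127, was found in 42.9% (17.7 to 71.1) of the WT and 22.2% (12 to 35.6) of the PD-1-/- Cxcr6-positive cells, against 5.40% and 3% of Cxcr6-negative cells. Where detected it reached 7.67 to 290.2 RPKM in WT and 0.917 to 790.0 in PD-1-/-. Rora, a nuclear receptor gene used by helper-like innate lymphocytes, was rarer, at 21.4% (4.66 to 50.8) against 6.35% in WT and 25.9% (15 to 39.7) against 9.36% in PD-1-/-. Its intervals overlapped in WT only, and the means rose by log2 2.02 and 1.47.

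The neighboring genes Tmem176a and Tmem176b, which encode related membrane proteins found in several innate lymphoid lineages, were among the genes with the largest rise in both plates. Tmem176b was detected in 57.1% (28.9 to 82.3) of the WT and 46.3% (32.6 to 60.4) of the PD-1-/- Cxcr6-positive cells, with medians of 856.4 and 716.6 RPKM where present, against 6.35% and 8.99% of Cxcr6-negative cells. Tmem176a was detected in 42.9% and 35.2%, against 2.22% and 4.12%. The means of Tmem176b rose by log2 3.80 and 2.85, and those of Tmem176a by 5.12 and 2.41. Inpp4b, a phosphoinositide phosphatase gene, rose by 2.77 and 2.60, with 57.1% and 37% of cells against 10.8% and 10.5%. Inpp4b was found in 40% of WT cells without rows A and B, with intervals that overlapped, and had a log2 ratio of 2.22. Cd200r1, an inhibitory receptor gene known from ILC1, was present in only 2 of 14 WT cells and 10 of 54 PD-1-/- cells, 14.3% (1.78 to 42.8) and 18.5% (9.25 to 31.4), against 1.90% and 3%.

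Ltb and Cd7 were already frequent in Cxcr6-negative cells. Ltb, a lymphotoxin subunit gene, had a mean of 593.3 RPKM against 247.2 in WT and 390.8 against 194.2 in PD-1-/-, and was detected in 85.7% and 87% of cells against 60% and 49.8%. Its log2 ratios of 1.26 and 1.01 were 0.98 and 0.85 without the highest cell of each plate. Cd7 had means of 1025.6 against 495.4 and of 1112.9 against 472.1 RPKM, with log2 ratios of 1.05 and 1.24, and of 0.78 in WT without the highest cell. Its share of cells did not separate in WT, at 64.3% against 64.4%, and did in PD-1-/-, at 88.9% (77.4 to 95.8) against 63.3% (57.2 to 69.1).

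Tnfsf10, which encodes the death ligand TRAIL of liver ILC1, was called in PD-1-/- only. There 38.9% (25.9 to 53.1) of Cxcr6-positive cells held it, against 10.9% (7.40 to 15.2), with a log2 ratio of 2.02. In WT it was found in 3 of 14 cells, 21.4% (4.66 to 50.8), against 10.8%, with a ratio of 0.64 and overlapping intervals, and in 10% against 9.86%, with a ratio of -1.80, without rows A and B. Cd160, the gene of an activating receptor, followed the same course, with a log2 ratio of 1.41 in PD-1-/- and 0.42 in WT. The activation and retention gene Cd69 was not higher, at 21.4% against 32.4% of cells in WT and 25.9% against 30.7% in PD-1-/-. Itgae, the gene of CD103, was detected in too few cells to be compared.

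**Figure D3:**
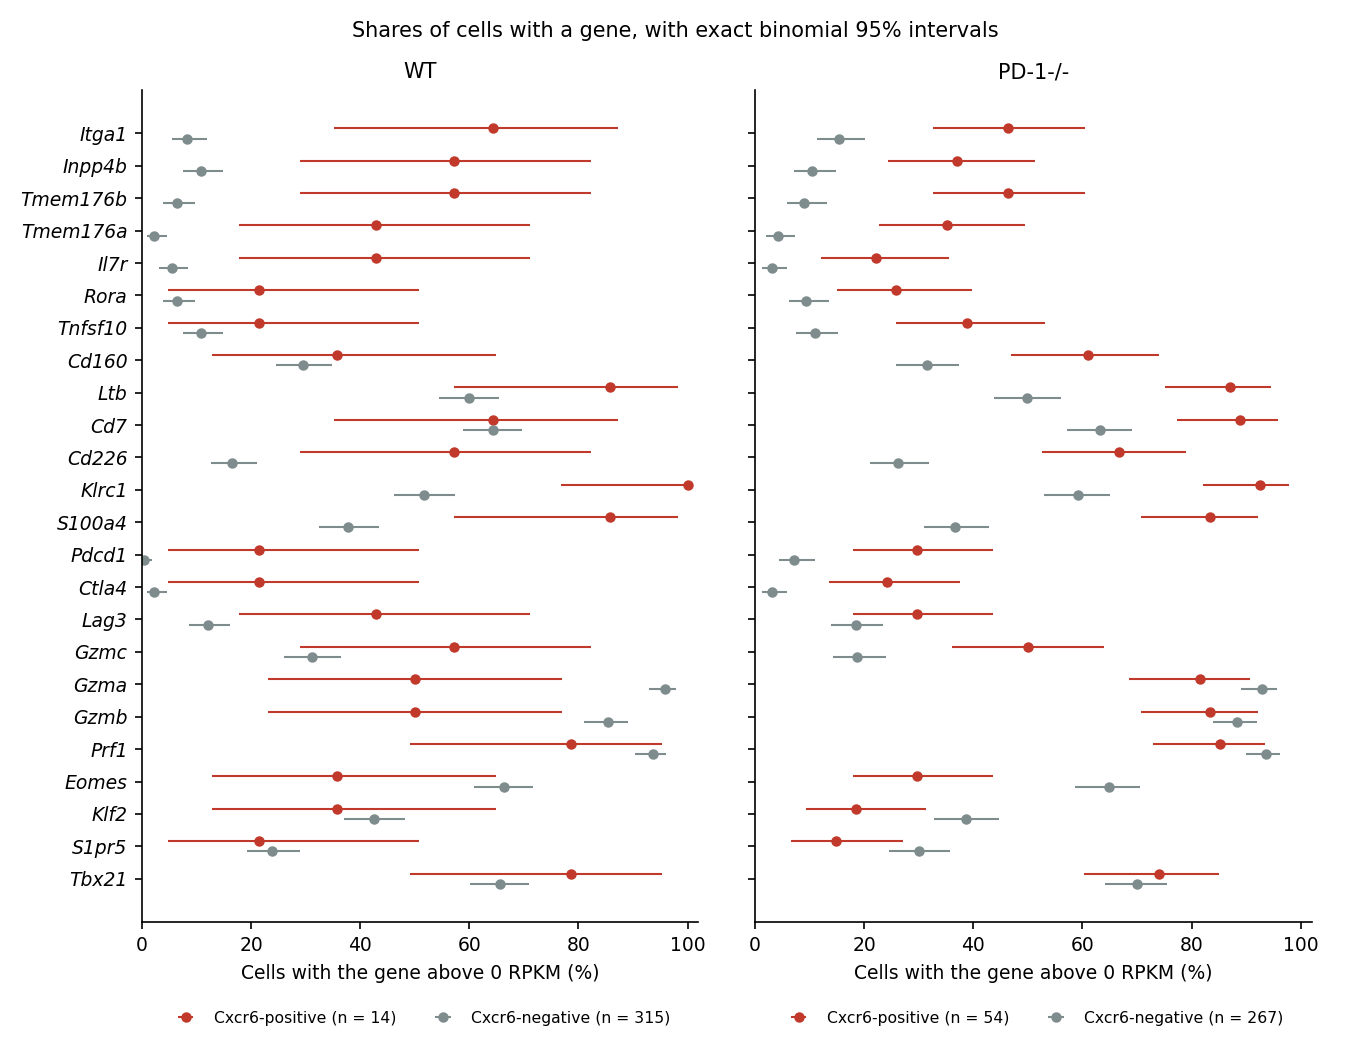
Share of cells (percent) in which named genes were detected, in Cxcr6-positive and Cxcr6-negative cells of each plate, with exact binomial 95% intervals as bars. Itga1, Il7r, Tmem176b, Klrc1, S100a4 and Cd226 are more often detected in Cxcr6-positive cells of both plates, while Eomes is less often detected.

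The residency genes were counted in each cell to see whether they were spread over the cells or held together in a few. Of 21 measured genes, a WT Cxcr6-positive cell held 4 to 11 with a median of 8.50 and a PD-1-/- cell 1 to 14 with a median of 8, against 0 to 13 with a median of 4 in Cxcr6-negative cells of either plate. At least 8 were found in 71.4% (41.9 to 91.6) of the WT and 53.7% (39.6 to 67.4) of the PD-1-/- Cxcr6-positive cells. Among Cxcr6-negative cells the shares were 8.25% and 10.1%. Most Cxcr6-positive cells were thus above the median of the Cxcr6-negative cells, but the ranges overlapped. The count was not particular to cells with fewer than 2 CD3 genes. Cxcr6-positive cells with at least 2 had medians of 9 in WT and 7 in PD-1-/-.

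**Figure D4:**
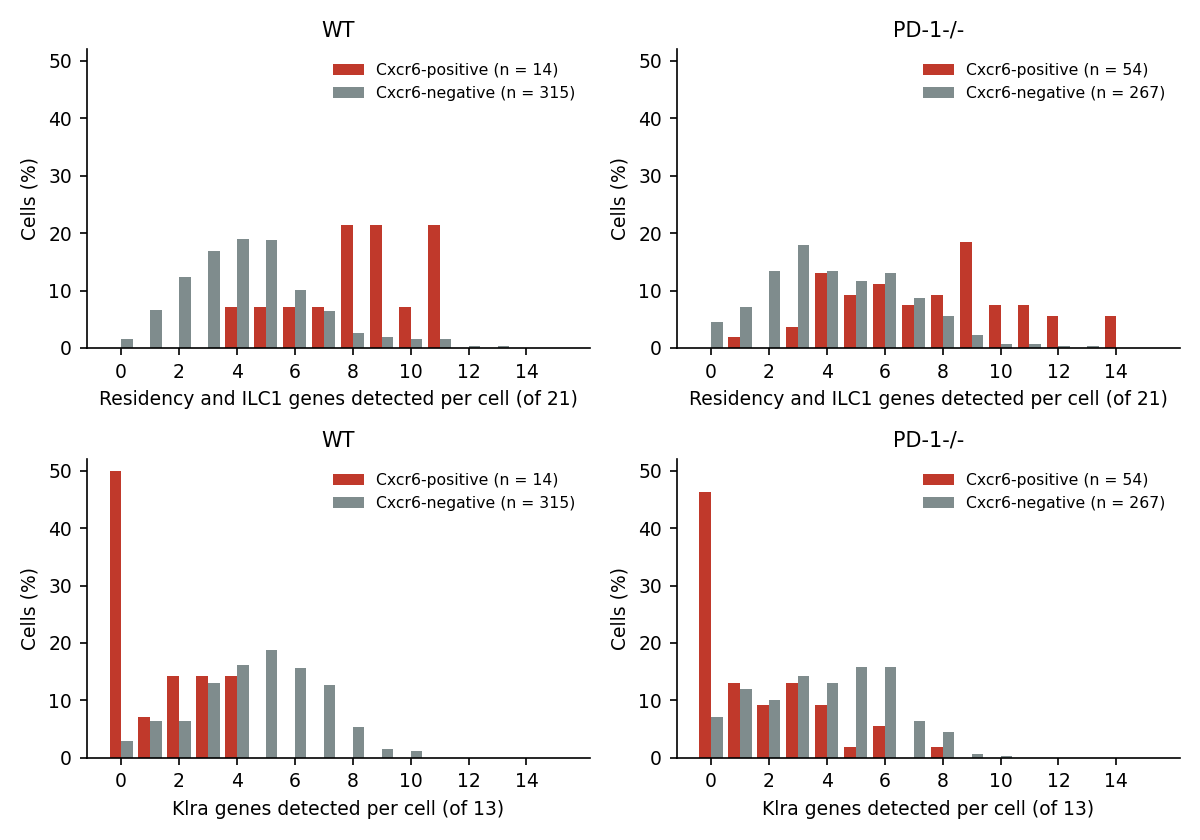
Number of the 21 measured residency and ILC1 genes (upper panels) and of 13 Ly49 (Klra) entries (lower panels) detected per cell (x axis) against the share of cells in percent (y axis), for Cxcr6-positive and Cxcr6-negative cells of each plate. Medians are 8.50 and 8 in the Cxcr6-positive cells of WT and PD-1-/-, and 4 in the Cxcr6-negative cells of both, and the Ly49 bar at 0 holds 50% and 46.3% of the Cxcr6-positive cells against 2.86% and 7.12% of the Cxcr6-negative cells.

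Fewer Ly49 entries were detected per Cxcr6-positive cell, while Klrc1 was detected in nearly every one. The Ly49 genes (Klra) encode receptors for classical MHC class I, and each NK cell transcribes its own subset of them. The 5 entries whose interval lay lower in both plates included 4 listed under Ly49 symbols, Klra18, Klra21, Klra23 and Klra7. Which Ly49 genes their reads came from was not tested, so that they may not stand for 4 separate genes. The Ly49 entries named here, Klra21 and Klra22 excepted, were chosen after their values were seen. Klra21 was listed at 0 in all 14 WT Cxcr6-positive cells, which allows a share of up to 21.4% by the limit of 3 counts and 23.2% by the exact interval, and was present in 40.6% (35.2 to 46.3) of Cxcr6-negative cells. In PD-1-/- it was found in 5.56% (1.16 to 15.4) against 36.7% (30.9 to 42.8), and the mean fell by 3.70 on the log2 scale. Klra18 gave 0 of 14 against 51.1% in WT and 5.56% against 39% in PD-1-/-.

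Klra23 was detected in 7.14% (0.181 to 33.9) against 62.2% in WT and 18.5% (9.25 to 31.4) against 55.1% in PD-1-/-. Klra7, the gene of Ly49G2, was detected in 21.4% (4.66 to 50.8) against 57.5% and in 25.9% (15 to 39.7) against 47.9%, and in 20% of WT cells, with overlapping intervals, without rows A and B. Klra9 had lower shares too, 28.6% against 51.4% and 29.6% against 43.1%, but its intervals overlapped and it was not called. Without rows A and B it was found in 10% of WT cells, with a log2 ratio of -1.29. Klra5 did not share the direction in PD-1-/-, at 13% against 4.12%. Counted over 13 Ly49 entries, a list made after the values were seen, 50% (23 to 77) of the WT and 46.3% (32.6 to 60.4) of the PD-1-/- Cxcr6-positive cells had none, against 2.86% (1.31 to 5.35) and 7.12% (4.34 to 10.9) of Cxcr6-negative cells. The median number was 0.5 and 1 against 5 and 4. Ly49 genes are near copies of each other, so that reads may have been split among them and the value of a single member is uncertain.

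Klrc1, by contrast, was present in nearly every cell. It encodes NKG2A, the inhibitory receptor for the nonclassical MHC class I molecule Qa-1. All 14 WT Cxcr6-positive cells held it, 100% (76.8 to 100), at 180.3 to 852.6 RPKM with a median of 381.4, against 51.7% (46.1 to 57.4) of Cxcr6-negative cells. In PD-1-/- 50 of 54 cells held it, 92.6% (82.1 to 97.9), with a median of 507.0 RPKM, against 59.2% (53 to 65.1). The intervals were apart in both plates, although the means, with log2 ratios of 0.99 and 0.97, fell just short of the call. The WT ratio was 1.16 without rows A and B.

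Of 9 inhibitory and exhaustion-linked genes compared, Pdcd1, Lag3 and Ctla4 were called higher in both plates and 0 lower in both. Over all entries, 1.46% were called higher and 5.30% lower in both. The list had a median log2 ratio of 0.99 in WT and 1.12 in PD-1-/-. Ctla4, the gene of a checkpoint receptor best known from T cells, was detected in 3 of 14 WT cells, 21.4% (4.66 to 50.8), at 10.1, 406.2 and 432.6 RPKM, against 2.22% (0.898 to 4.52). In PD-1-/- it was detected in 13 of 54 cells, 24.1% (13.5 to 37.6), at 9.55 to 882.8 RPKM, against 3% (1.30 to 5.82). Both pairs of intervals were apart, and the means rose by log2 3.53 and 3.35. Without rows A and B the WT share was 20% (2.52 to 55.6) against 2.04% (0.753 to 4.39), and these intervals overlapped. Lag3, another checkpoint receptor gene, was detected in 42.9% (17.7 to 71.1) against 12.1% in WT and in 29.6% (18 to 43.6) against 18.4% in PD-1-/-, where the intervals overlapped. They overlapped in WT too without rows A and B, and the log2 ratios of 1.46 and 1.12 were 0.79 and 0.86 without the highest cell of each plate. Tigit and Cd96, which encode receptors of the nectin family that compete with CD226, were not called, with log2 ratios of -0.08 and 0.78 in WT and -0.63 and 0.27 in PD-1-/-. Cd96 had 1.08 in WT without rows A and B.

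The PD-1 gene, Pdcd1, was present in 3 of the 14 WT cells, 21.4% (4.66 to 50.8), at 394.7, 451.3 and 1492.7 RPKM, and in 1 Cxcr6-negative cell, 0.317%. All 3 lay in plate row A and each held a CD3 gene, and the single Cxcr6-negative WT cell with Pdcd1 also lay in row A. Without rows A and B Pdcd1 was at 0 in all 10 remaining WT cells, which allows a share of up to 30%, and in the WT cells with no CD3 gene it was likewise at 0. The part of the plate position in the WT value was not tested. In PD-1-/- Pdcd1 was detected in 16 of 54 cells, 29.6% (18 to 43.6), at 3.91 to 232.2 RPKM, against 7.12% (4.34 to 10.9), and in 27.5% against 6.06% without rows A and B. These 16 cells lay in 8 plate rows. The reads from the PD-1-/- plate, with a median of 50.5 per positive cell, are summed over the gene and do not separate the deleted exons, so that they check neither the deletion nor the labels.

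Of 7 costimulatory genes compared, 1 was called higher in both plates, against 1.46% of all entries. Cd226, which encodes the activating receptor DNAM-1, was detected in 57.1% (28.9 to 82.3) of the WT and 66.7% (52.5 to 78.9) of the PD-1-/- Cxcr6-positive cells, with medians of 94.3 and 225.6 RPKM where present. In Cxcr6-negative cells the shares were 16.5% (12.6 to 21.1) and 26.2% (21 to 31.9). The mean rose by log2 1.89 and 1.90. Tnfrsf9, Tnfrsf18, Icos, Cd27 and Cd244 were not called in either plate, and Cd28 was called higher in WT only, at 50% (23 to 77) against 20%. The log2 ratio of Cd28 in WT was 1.05, and 0.68 without the highest cell. Without rows A and B, Cd28 had 1.55 in WT, with intervals apart, and -1.13 in PD-1-/-. Tnfrsf9 had -1.13 in WT without these rows.

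Cytotoxic genes did not move together. Gzmc, a granzyme gene whose reads may be shared with near-identical neighbors of its cluster, had means of 4502.1 against 435.0 RPKM in WT, a rise of log2 3.37, and rose by 2.77 to a mean of 2087.0 in PD-1-/-. It was detected in 57.1% (28.9 to 82.3) against 31.1% and in 50% (36.1 to 63.9) against 18.7%. Gzma, a granzyme gene of resting and active NK cells, was detected in 7 of 14 WT Cxcr6-positive cells, 50% (23 to 77), against 95.9% (93 to 97.8), and in 81.5% (68.6 to 90.7) against 92.9% (89.1 to 95.7) in PD-1-/-. The means of Gzma differed by log2 -1.03 in WT and -0.58 in PD-1-/-, so that the call was made in WT only. Gzmb behaved alike in WT, at 50% against 85.4% of cells, while 83.3% against 88.4% was found in PD-1-/-. Its log2 ratios were -0.46 and -0.60, and the WT ratio was -2.92 without rows A and B, with means of 356.9 RPKM in place of 1997.8 in the Cxcr6-positive cells. Prf1, the gene of perforin, had log2 ratios of -0.85 and -0.74 and was not called, but had -1.41 in WT without rows A and B.

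Of 7 cytokine and chemokine genes compared, Ifng was called higher and Ccl3 lower in both plates, against 1.46% and 5.30% of all entries. The calls of Ifng, and that of Ccl3 in PD-1-/-, were lost without a single cell. Ifng was detected in 35.7% (12.8 to 64.9) against 24.8% in WT and in 35.2% (22.7 to 49.4) against 30.7% in PD-1-/-, with overlapping intervals and log2 ratios of 2.05 and 1.29. A single PD-1-/- cell held 10041.1 RPKM of Ifng, against a median of 254.6 in those with the transcript, and the highest WT cell held 2728.9. Without the highest cell of each plate the ratios of Ifng were 0.59 and -0.14, and in rows I to P of WT the ratio was -2.63. Ccl3, a macrophage-attracting chemokine gene, had log2 ratios of -2.56 and -1.10, with overlapping shares of 14.3% against 19.4% and 25.9% against 24.7%, and its PD-1-/- ratio was -0.71 without the highest Cxcr6-negative cell. Xcl1, the chemokine gene that draws dendritic cells, was called in WT only, with log2 ratios of 1.12 and 0.54, and the WT ratio was 0.48 without rows A and B.

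The transcription factor genes set Eomes apart from Tbx21. Eomes was detected in 5 of 14 WT Cxcr6-positive cells, 35.7% (12.8 to 64.9), against 66.3% (60.8 to 71.6), and in 16 of the 54 PD-1-/- cells, 29.6% (18 to 43.6), against 64.8% (58.7 to 70.5). The intervals were apart in PD-1-/- and overlapped in WT, and the mean fell by 2.17 and 2.02 on the log2 scale. Where detected, Eomes spanned 0.718 to 107.8 RPKM in WT and 0.595 to 437.7 in PD-1-/-. Tbx21, the gene of T-bet, was found in 78.6% against 65.7% and 74.1% against 70%, with log2 ratios of 0.43 and 0.20, and was not called. Of 22 transcription factor genes compared, Rora was called higher and Eomes and Nr4a1 lower in both plates, against 1.46% and 5.30% of all entries. The median log2 ratio of the list was -0.38 and -0.19. Nr4a1, an immediate early gene of antigen receptor signaling, was at 0 in all 14 WT cells and present in 1 of 54 PD-1-/- cells, against 10.5% and 6.74%. Its intervals overlapped in both plates, and by the limit of 3 counts 0 of 14 allows a share of up to 21.4%.

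Genes of circulating mature NK cells were mostly not called. Of 11 compared, Eomes and the chymase gene Cma1 were called lower in both plates and 0 higher, against 5.30% and 1.46% of all entries. The list medians were -0.65 in WT and -0.50 in PD-1-/-. The PD-1-/- ratio of Cma1 was -1.16, and fell just short of the call without the highest Cxcr6-negative cell. Klf2, a factor that drives expression of egress receptors, was detected in 18.5% (9.25 to 31.4) against 38.6% (32.7 to 44.7) in PD-1-/-, with intervals apart, and in 35.7% against 42.5% in WT. S1pr5, the sphingosine 1-phosphate receptor gene used by NK cells for egress, was detected in 14.8% against 30% in PD-1-/- and in 21.4% against 23.8% in WT, with overlapping intervals. Klrg1, a gene of terminally mature NK cells, was called higher in WT, at 42.9% (17.7 to 71.1) against 15.6%, and had a log2 ratio of 0.14 in PD-1-/-.

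Among other receptors, Cxcr3, the receptor gene for interferon-induced chemokines, was detected in 64.3% against 42.2% of WT and 63% against 42.7% of PD-1-/- cells, with log2 ratios of 0.99 and 1.04 and overlapping intervals. These ratios were 1.43 in WT without rows A and B, and 0.47 and 0.95 without the highest cell of each plate. Ccr2, which serves entry into inflamed tissue, had log2 ratios of -0.24 and -0.33. Of 14 cytokine receptor genes, Il7r and Il21r were called higher in both and 0 lower in both, against 1.46% and 5.30% of all entries. Il21r was found in 28.6% against 10.8% and 22.2% against 13.1% of cells, and its log2 ratios of 1.39 and 1.04 were 0.70 and 0.66 without the highest cell of each plate. Its WT ratio was 0.55 without rows A and B, so that the WT call was lost. Il2rb, the shared receptor chain for interleukin-2 and interleukin-15, was detected in all 68 cells with log2 ratios of -0 and -0.02.

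Among entries with a mean of at least 10 RPKM over the compared cells, the 12 largest rises shared by the plates included, outside these lists, S100a4, Gpr34, AA467197, Gpr97, Ramp1 and Tmco6. S100a4, the gene of a calcium-binding protein of motile cells, was detected in 85.7% (57.2 to 98.2) against 37.8% in WT and 83.3% (70.7 to 92.1) against 36.7% in PD-1-/-, with medians of 3293.8 and 2623.8 RPKM where present. Its mean rose by log2 2.81 and 2.21. Ramp1, which encodes a subunit of the receptor for the neuropeptide CGRP, rose by 2.77 and 2.09, with 28.6% against 12.4% and 50% (36.1 to 63.9) against 21.7% of cells. AA467197 rose by 2.84 and 2.25, Gpr34 by 2.97 and 2.31, and Gpr97 by 3.26 and 2.11. AA467197 was found in 10% against 4.08% of WT cells without rows A and B, and Tmco6 had a log2 ratio of 0.89 in WT without its highest cell.

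Of the 23 entries whose interval lay higher in both plates, 11 belong to the genes named so far, and the other 12 were chosen after their values were seen. They were 5430421N21Rik, Bcl2a1d, Cysltr2, Fam46a, H2-Ab1, Ifitm2, Igflr1, Itm2c, Ly6c2, Mapkapk3, Sema6d and St6galnac3. Ly6c2, a Ly6C surface antigen gene with a near copy, was detected in 64.3% against 18.7% of WT and 57.4% against 27.3% of PD-1-/- cells. H2-Ab1, an MHC class II gene, was detected in 35.7% against 3.17% and 22.2% against 3.75%. The WT intervals of both overlapped without rows A and B, where H2-Ab1 was found in 20% of WT cells and Mapkapk3, with a log2 ratio of 1.67 in all rows, had -0.62.

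Of the 505 entries called lower in both plates, 61 were at 0 in all Cxcr6-positive cells. The 12 largest falls, at a mean of at least 10 RPKM over the compared cells, included 7 such genes. Cd300lf, an inhibitory receptor gene, was at 0 in 14 WT cells and at 2.38 RPKM in 1 of 54 PD-1-/- cells, against 23.2% (18.6 to 28.2) and 14.6% (10.6 to 19.4) of Cxcr6-negative cells. Its PD-1-/- intervals were apart, but overlapped without rows A and B. Myb, a factor of progenitor cells, was at 0 in all 68 cells, against 15.2% and 13.5%. By the limit of 3 counts, a count of 0 allows 21.4% for the WT and 5.56% for the PD-1-/- cells, so that the 15.2% of the WT plate lay within the limit and the 13.5% of the PD-1-/- plate above it. Tmem106c, Klhl22, Gstm4, Zfp90, Mx1 and Klra22 were likewise at 0 in all 68 cells, Snord38a was present in 1 and Apobec1 in 4 PD-1-/- cells. The interferon-induced gene Mx1 was rare in the Cxcr6-negative cells too, at 3.17% and 4.12%.

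The Cxcr6-positive cells varied with their Cxcr6 level. Among PD-1-/- cells, Itga1 was detected in 57.1% of the 42 cells with at least 10 RPKM and in 8.33% of the 12 cells below it, Inpp4b in 45.2% and 8.33%, and Pdcd1 in 35.7% and 8.33%. The intervals were apart for Itga1 (41 to 72.3 and 0.211 to 38.5) and overlapped for Inpp4b and Pdcd1. Tnfsf10 was found in 50% of the former and listed at 0 in the latter, which allows a share of up to 25%. Some other genes had the opposite order. Eomes was found in 21.4% and 58.3%, Klf2 in 11.9% and 41.7%, Tcf7, a factor of less differentiated lymphocytes, in 16.7% and 66.7%, and Klra18 and Klra21 in 0 and 25%. The intervals were apart for Tcf7 and overlapped for Eomes, Klf2, Klra18 and Klra21. Klrc1 was frequent in both, at 95.2% and 83.3%. The cells below 10 RPKM held 1 or 2 Cxcr6 reads, and some of their shares were near those of Cxcr6-negative cells. In the latter Itga1 was found in 15.4%, Inpp4b in 10.5%, Pdcd1 in 7.12%, Klra18 in 39% and Klra21 in 36.7%.

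In WT the split was 10 against 4 cells. Inpp4b and Gzmc were detected in 80% of the 10 and in 0 of the 4, and S1pr5 and Tcf7 in 0 and 20% of the 10 against 75% and 100% of the 4. By the limit of 3 counts, a count of 0 allows a share of up to 30% of the 10 cells and 75% of the 4. The intervals of all these genes overlapped. The cells below 10 RPKM were not shallower in PD-1-/-, with a median of 368222.5 recovered reads against 299770 above it. The values of the weak cells rest on 4 and 12 cells.

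**Figure D5:**
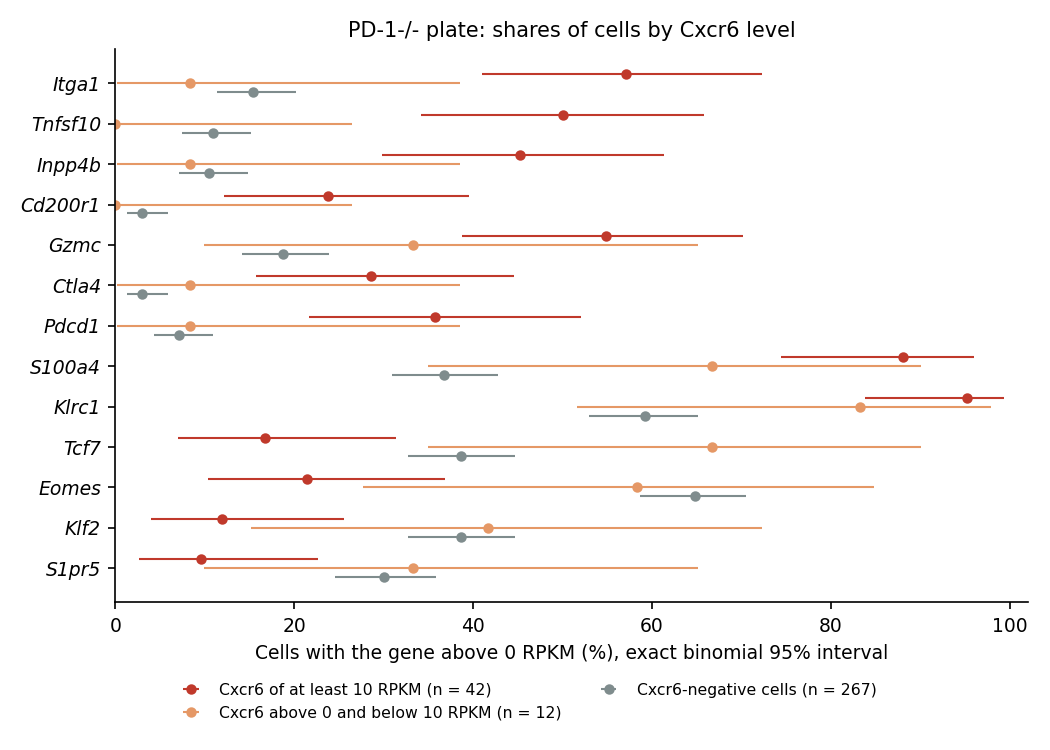
Share of cells (percent, x axis) of the PD-1-/- plate in which named genes were detected, in Cxcr6-positive cells with Cxcr6 of at least 10 RPKM or below it and in Cxcr6-negative cells, with exact binomial 95% intervals as bars. Itga1 goes from 8.33% below the split to 57.1% above it, and Eomes from 58.3% to 21.4%, where the intervals of Eomes overlap.

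Itga1 gave another division of the PD-1-/- Cxcr6-positive cells, which was not separate from that by Cxcr6 level. Of the 25 cells with Itga1, 24 had at least 10 RPKM of Cxcr6 and 1 had less. Intervals were not computed for the shares of this division. The 25 cells with Itga1 held Eomes in 12%, Klf2 in 4% and S1pr5 in 0, against 44.8%, 31% and 27.6% of the 29 cells without it. They held Tnfsf10 in 56% against 24.1%, Gzmc in 68% against 34.5%, Lag3 in 44% against 17.2% and Pdcd1 in 40% against 20.7%. In WT, where 9 cells had Itga1 and 5 did not, the order was the opposite for Eomes and Klf2, both at 44.4% with and 20% without Itga1, and for Lag3, at 33.3% and 60%. It was the same for S1pr5 and Gzmc, at 11.1% against 40% and 66.7% against 40%, and for Tnfsf10, at 33.3% against 0, while Pdcd1 was found in 22.2% and 20%.

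Mki67, the gene of the proliferation antigen Ki-67, was detected in 11 of 54 PD-1-/- Cxcr6-positive cells, 20.4% (10.6 to 33.5), at 0.209 to 260.1 RPKM, against 6.37% (3.75 to 10), with a log2 ratio of 1.62. All 4 cycling genes compared, Mki67, Top2a, Ccna2 and Cdk1, were called higher in PD-1-/-, against 6.62% of all entries, with a median log2 ratio of 2.11. Ccna2 was found in a lower share of cells, 5.56% against 10.5%, and its call rested on 3 cells. Without the highest cell the ratio of Mki67 was 0.51 and that of Top2a -0.67. The WT ratio of Mki67 was -0.31, and -1.41 without rows A and B. In WT 1 of 14 cells held Mki67, against 3.81%, and 0 of the 4 genes were called higher and 1 lower, against 11.2% and 29.1% of all entries, with a median of -0.62. The difference between the plates was not tested.

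The groups most like them were examined to see which features went with Cxcr6 and which with CD49a. Cells with Itga1 but Cxcr6 at 0, 26 in WT and 41 in PD-1-/-, held Il7r in 7.69% and 2.44%, Tmem176b in 23.1% and 14.6% and Ctla4 in 7.69% and 4.88%. Eomes was present in 69.2% and 53.7% of them, Gzma in 100% and 90.2%, and Klrc1 in 65.4% and 73.2%. Against the Cxcr6-positive cells the intervals were apart for Gzma in WT and for Tmem176b in PD-1-/-, where they were 86.8 to 100 and 5.57 to 29.2 in the Cxcr6-negative cells with Itga1. The other intervals of these genes overlapped.

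Cxcr6-positive cells with at least 2 CD3 genes, 14 and 23, held Itga1 in 57.1% and 65.2%, Klrc1 in 92.9% and 91.3%, S100a4 in 71.4% and 82.6% and Eomes in 14.3% and 17.4%, all with intervals that overlapped those of the Cxcr6-positive NK cells. Ncr1 was found in 21.4% and 56.5% against 85.7% and 98.1%, and Tyrobp, the adaptor gene DAP12, in 78.6% and 56.5%, against 100% and 98.1%. Tmem176b was found in 21.4% and 4.35% of them, against 57.1% and 46.3% of the NK cells, and Ctla4 in 7.14% and 0. The intervals were apart for Ncr1 in both plates and for Tyrobp and Tmem176b in PD-1-/-.

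In PD-1-/- over WT Cxcr6-positive cells, 2601 entries were called higher (27.3%) and 1447 lower (15.2%), and 986 of the 2601 (37.9%) had all 14 WT cells at 0. The median log2 ratio over all entries was 0.15. Itga1, Klrc1 and Eomes, which marked the Cxcr6-positive cells of both plates, had ratios between the genotypes of 0.39, 0.28 and 0.12. Tnfsf10 had a ratio of 1.73, and 4.29 without rows A and B, and Pdcd1 had -2.59, but was listed at 0 in WT when these rows were left out. Snord42b, Klra13-ps, Psmg2, Tbl3 and Akip1 were at 0 in all 14 WT cells, and were found in 18.5%, 9.26%, 25.9%, 22.2% and 18.5% of PD-1-/- cells. The intervals of all 5 overlapped. A single cell held 47252.8 RPKM of Snord42b. Of the largest falls, H2-Aa, an MHC class II gene, was present in 2 cells of each genotype at means of 457.0 and 0.147 RPKM, and Dcxr, Slamf6, Hist1h4m and Cd68 in 1 to 3 WT cells. Hist1h4m differed alike between the Cxcr6-negative cells of the plates, at means of 98.2 RPKM in WT and 0.509 in PD-1-/-.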

How the data were processed

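NK cells of MTAP1A tumors, 1 pool of 3 mice and 1 plate of 384 wells per genotype, were measured by SMART-SEQ2. The authors deposited RPKM per gene entry and well, 24490 entries for each of 768 wells, and these values were used without further scaling. TopHat and Cufflinks and the builds mm9 and mm10 are named in the submitters' processing notes, with roles not given in the sources used here, so no coordinates are printed. The labels state 382 sorted cells, against 768 wells in the tables and 726 that the limits kept, 360 WT and 366 PD-1-/-. Of these, 329 and 321 had fewer than 2 CD3 genes, and 315 and 267 were the Cxcr6-negative cells of WT and PD-1-/-. Doublets were not called; the upper limit of 3500 detected genes removes wells of high gene number.

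A gene was present above 0 RPKM. The members, the gene lists and the settings were chosen with earlier results of these data known, so that a list's direction is a description. Log2 ratios are of mean RPKM over cells with 1 added, which understates changes of low genes, and were called at an absolute value of 1. Entries detected in at least 3% of the compared cells were used, without Cxcr6 and the CD3 genes. Entries that share a symbol, as for 279 symbols, were kept apart, and Zfp683 matched no entry. Named genes are the listed genes, the 12 largest rises and 12 largest falls shared by both plates at a mean of at least 10 RPKM, ranked by the smaller absolute ratio, and the 5 largest rises and falls between genotypes that kept their sign without rows A and B.

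Whole reads were recovered from the steps in RPKM for 9612 of 11700 genes, and 99.5% of 684219 low values were whole within a relative tolerance of 0.0003. They served for depth and for thinning cells to 100000 reads. RPKM from reads without molecular identifiers cannot separate molecules from copies, and intervals cover counting error only. Scripts were tested on simulated data. Python 3.11.15, numpy 2.4.6, pandas 2.3.3, scipy 1.17.1 and matplotlib 3.10.9 were used. Alternatives were other plate rows, every well, stricter limits on CD3, T cell markers and Cxcr6, 10 RPKM as the limit of presence, thinning, a pseudocount of 10, no filter on low values, RPKM scaled to the same total, means of log2 values and, chosen after the data were seen, leaving out the highest cell of each gene and plate. Some items are not reported here.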

Additional observations from a re-analysis of the deposited data

Results flagged for a closer look

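A set of 6 genes of the lists had log2 ratios of mean RPKM, Cxcr6-positive over Cxcr6-negative cells, that passed the 2-fold call in opposite directions in the plates. Cdk1, a cell cycle kinase gene, had -1.65 in WT and 2.24 in PD-1-/-. Maf had -1.32 and 1.03, the ectoenzyme gene Nt5e -1.71 and 1.25, Tnf -2.66 and 1.28, and the exhaustion-linked factor gene Tox -3.94 and 1.43. Kit, the stem cell factor receptor gene, had the opposite order, with 1.27 in WT and -1.35 in PD-1-/-. The difference between the plates was not tested for any of them, and the WT values rest on 14 cells, in which Cdk1 and Maf were listed at 0.

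Cxcr6 was also found in wells with fewer than 2 CD3 genes that the limits on detected genes removed. It was detected in 4 of 22 such wells of the WT plate, at 27.8 to 1253.3 RPKM, and in 2 of 12 of the PD-1-/- plate, at 712.4 and 1935.0 RPKM. All of them lay above the upper limit, which removed 14 and 8 of these wells, and 0 of the 8 and 4 wells below the lower limit held Cxcr6.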

How the results depend on the processing

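Under the alternatives, 51 counts and shares moved by more than 1.5 times or out of their counting interval, and the others did not. The cause was not tested. With plate rows A to H or I to P alone, the positive cells were 7 and 7 in WT, and 25 and 29 in PD-1-/-. Without any T cell marker 9 WT cells remained. With at least 3 Cxcr6 reads, a limit chosen after seeing the data, 9 remained and the PD-1-/- share was 12.8%. List genes whose interval lay higher were 5 (WT) and 11 (PD-1-/-) in the upper rows, and in WT 3 in the lower rows, 18 with every well and 6 without T cell markers. Those lower were 1 and 0 in the upper rows, 1 and 1 in the lower rows, 1 in WT without CD3 genes, and 1 and 4 with at least 10 RPKM or at least 3 reads of Cxcr6.

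The share of entries called at 2-fold moved most. With a pseudocount of 10, 4.54% were called higher in WT, 1.53% in PD-1-/- and 0.451% in both, and 9.99%, 2.12% and 0.714% lower. Without a filter these were 10.8%, 8.57% and 1.34% higher, and 23.5%, 11.5% and 4.62% lower, of 17942 entries. With means of log2 values, 1.86% and 0.724% were higher in PD-1-/- and in both, and 3.93%, 1.05% and 0.399% lower in WT, PD-1-/- and both. The upper rows gave 10.5% and 2.32% higher, and 24.2% and 12.4% lower, in PD-1-/- and both, and the lower rows 10.7% higher in PD-1-/-, with 18.2% and 10.1% lower. Lower in both were 8.28% without T cell markers and 8.90% with at least 3 reads. Between genotypes, 10.7% were higher and 6.80% lower with a pseudocount of 10, 4.96% higher with means of log2 values and 13.2% lower without a filter.

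Single genes were followed only where they were called, or had intervals apart, in the same direction in both plates. The genes named between genotypes were followed too. Genes called in 1 plate only were left out, so that the counts do not describe all named genes. Of the followed values under each alternative, 1325 stayed, 95 moved and 15 reversed. Pdcd1 in WT reversed without CD3 genes, with a share difference of -0.351 points and a log2 ratio of -0.45, and without T cell markers, with -0.369 and -0.47. In the lower rows of WT, Cd200r1 had -2.05, Ifng -2.63 and Lag3 -0.58, and in the upper rows Tmco6 had -2.59. Without the highest Cxcr6-positive cell, an alternative chosen after seeing the data, Ifng had -0.14 in PD-1-/-. Between genotypes, Dcxr had 0.14 and Slamf6 0.17 in the upper rows, and 0.09 and 0.04 with at least 10 RPKM or at least 3 reads of Cxcr6. No paired analysis was possible because the numbers in the sample titles only name wells of separate pools and the results come from no test.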
